A study of Homo sapiens with 6 samples.

Results

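The genes described here are 40 complement components, complement regulators, clotting factors and clotting inhibitors that the liver makes, out of 37822 gene symbols in the deposited table. They were chosen by name, 24 for complement and 16 for coagulation, and all 40 symbols have a row. RNA was sequenced from Huh7, a human hepatocellular carcinoma line, in 2 groups of 3 libraries. The FLAG group had a wild-type genotype label and received a FLAG control lentivirus, and the VPS72 group received a lentivirus that overexpresses VPS72, a subunit of chromatin complexes that exchange the histone variant H2A.Z. Both groups thus carried lentivirus, which was packaged in HEK293T cells and stayed on the culture for 24 h. Both were 1 line, and the labels do not say whether clones were picked or whether replicates were separate cultures, and the p-values given here therefore reflect spread that may be technical.

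Hepatocytes secrete most of the plasma proteins of complement and coagulation. In complement, the recognition proteins C1q, mannose-binding lectin and the ficolins activate the proteases C1r, C1s and the MASPs, convertases built from C4, C2, C3 and factor B cleave C3 and C5, and C5 to C9 assemble a pore in the target membrane. In coagulation, vitamin K-dependent zymogens and the contact factors activate one another up to thrombin, with factor V as a cofactor, while antithrombin, heparin cofactor II, tissue factor pathway inhibitor and the protein C system hold thrombin formation back. Each member's level was compared between the VPS72 and FLAG libraries, and complement was set against coagulation.

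Total counts per library ran from 21345279 to 29091824. VPS72 itself had 511 to 686 counts in the FLAG libraries and 27483 to 33086 after VPS72 overexpression, which matches the labels. All 10 hepatocyte markers examined were expressed, while 8 of 8 macrophage and 5 of 5 leukocyte markers did not pass the filter on low counts. C1QA, C1QB and C1QC, the C1q chains that macrophages make, were at 0 in all 6 libraries. Of 14253 genes tested, 60 rose and 28 fell at a Benjamini-Hochberg (BH) adjusted p under 0.05, by the quasi-likelihood test of edgeR. The split was 32 and 54 when only library size was scaled, and 44 and 32 with upper quartile scaling. Levels below are CPM, the usual depth-normalised count unit, after TMM scaling, and fold changes are VPS72 over FLAG. In RNA from whole cultures, fewer cells making a transcript and less of it per cell cannot be told apart.

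Huh7 expressed most but not all of the 2 cascades. At a level of at least 1 CPM in each FLAG library, 32 of the 40 members were expressed. C4A, C4B, PROZ and SERPINC1 were lower but passed the filter on low counts. MASP2, C6, C8G and F9 did not pass it and were not tested, so 36 members were tested. F9, the gene of clotting factor IX, had 0 counts in all 6 libraries, which allows at most 0.104 to 0.14 CPM per library when 3 counts are taken as the limit. Per kilobase of the longest coding transcript in GENCODE release 29, C5 was highest in the FLAG libraries at 124 ± 7.45 CPM per kb (SD, n = 3). SERPING1 (102 ± 2.94) and VTN (101 ± 4.48 CPM per kb) came next and did not differ from each other beyond their spread. CD46 (67.8 ± 1.93), CLU (60.3 ± 1.67) and PROS1, the highest coagulation member (53.1 ± 1.36 CPM per kb), followed in that order, each apart from the next. C3 (42.9 ± 2.67), TFPI (38.5 ± 1.36) and F2 (37.5 ± 1.27 CPM per kb) came after these, and the last pair differed by less than their SD.

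**Figure D1:**
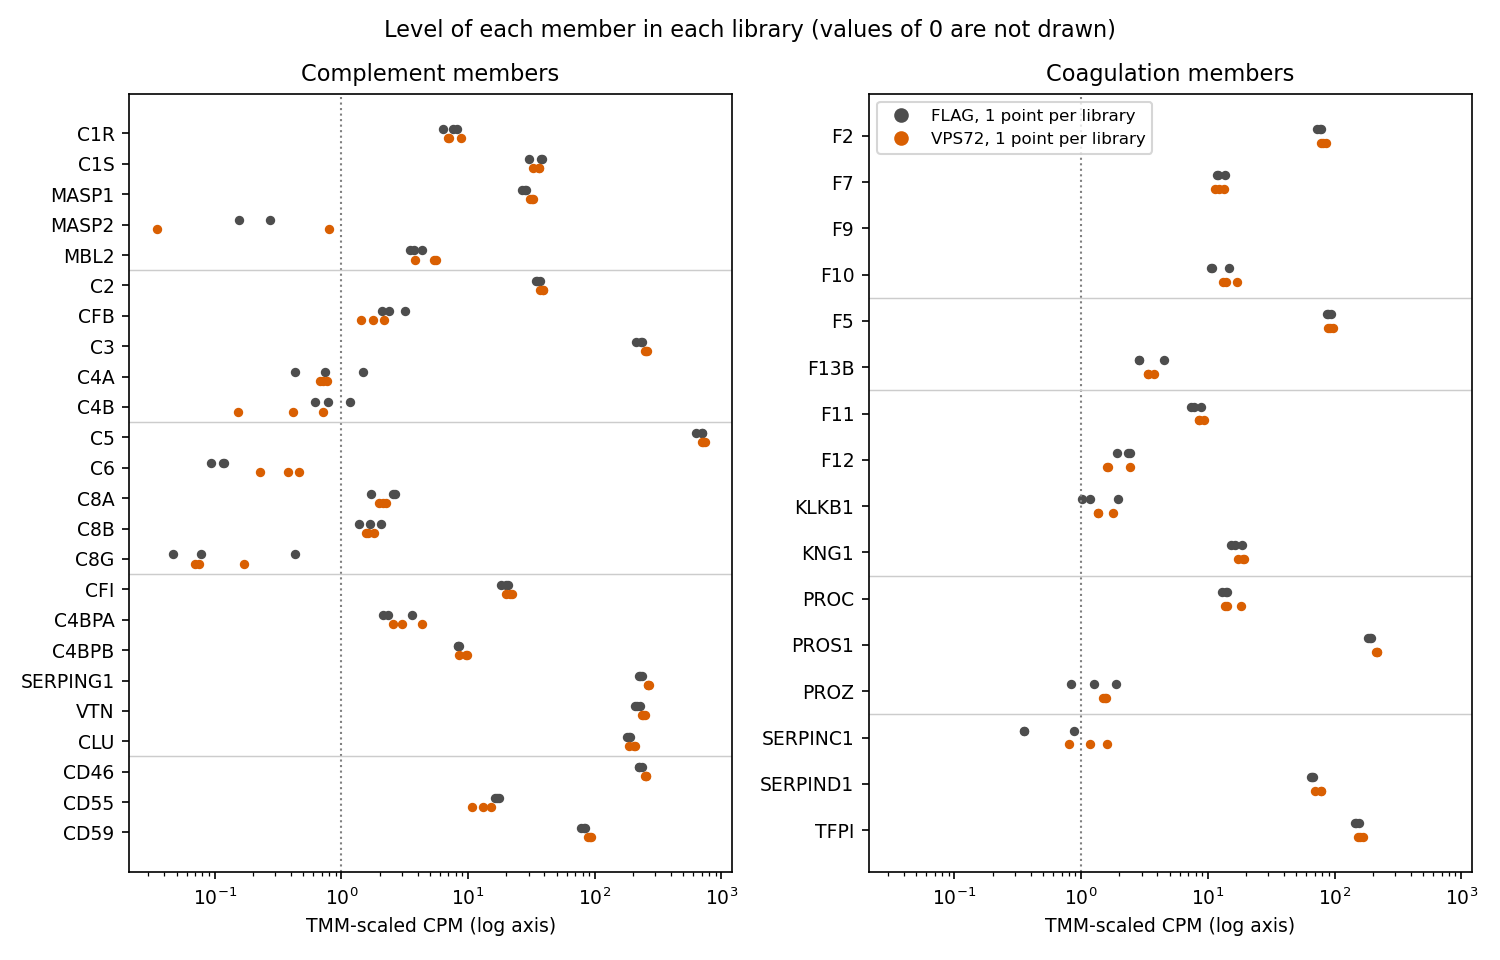
TMM-scaled CPM of each member on a log axis, with 1 point per library, FLAG in grey and VPS72 in orange; the dotted line marks 1 CPM and values of 0 are not drawn. Members spread from C5 near 700 CPM to F9, which has no point because it was at 0 in every library.

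Of the 36 tested members, 1 rose (SERPING1), 0 fell and 35 did not pass the test, where 0.617% of all tested genes passed in either direction and 0.421% rose. At an unadjusted p under 0.05, 14 of the 36 passed, against 11.5% of all tested genes. SERPINC1 and C4B reached the level of the filter on low counts in all 3 libraries of 1 group only. Without both the count was 13 of 34, an alternative chosen after the values were seen. DESeq2 called 5 members, C3, CD46, PROS1, SERPING1 and VTN, where it called 1.75% of the same genes. That share counts genes to which DESeq2 gave no adjusted p, among them MASP1, CFI, CD55, F7, F10, KNG1 and PROC. It is thus lower than the share among genes that DESeq2 could call. The differences were small. The median log2 fold change over tested members was 0.12, against -0.0038 over all tested genes, and 27 of 36 were above 0, against 48.8% of all tested genes. VPS72 and FLAG libraries did not overlap in 9 members that were higher and 1 that was lower, against 8.76% of all tested genes in the higher and 8.47% in the lower direction. Abundant genes leaned upward as a whole. Of 4328 tested genes with a mean of at least 50 CPM, 61.2% had a log2 fold change above 0, the median was 0.02, and 17.1% were higher and 7.69% lower without overlap. Of these genes 1.62% passed the test and 1.29% rose, and 832 of the 4328 had an unadjusted p under 0.05 by edgeR. The 12 members at that level were all above 0 with a median of 0.15, and 8 of them were higher without overlap. Such an unadjusted p was reached by 10 of the 12.

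**Figure D2:**
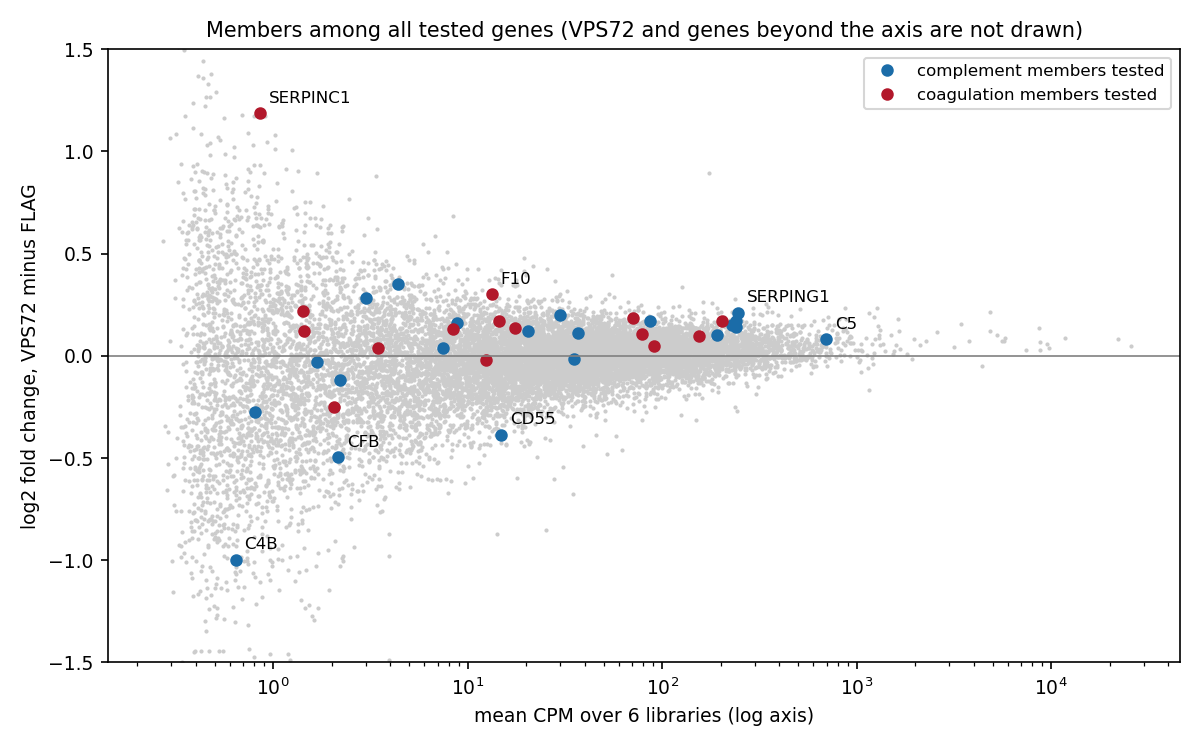
Log2 fold change (VPS72 minus FLAG) against mean CPM on a log axis, with all tested genes in grey, complement members in blue and coagulation members in red. Members above 50 CPM lie above 0 in a narrow band, members under a few CPM scatter widely, and 24 genes beyond the vertical axis besides VPS72 are not drawn.

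The recognition and initiating proteases of complement were low to moderate in level, and none of the 4 tested passed by edgeR, 1 of them with an unadjusted p under 0.05. MASP1, a protease of the lectin pathway that cleaves MASP-2 and, through its splice forms, pro-factor D, stood at 28.0, 26.7 and 28.7 CPM in FLAG replicates 1 to 3 and at 32.1, 30.8 and 32.7 CPM in VPS72 replicates 1 to 3. All VPS72 libraries were above all FLAG libraries. The log2 fold change was 0.20 ± 0.07 (SE, BH-adjusted p = 0.286 by edgeR). C1S, the protease of C1 that cleaves C4 and C2, had 30.4, 37.9 and 38.1 CPM in FLAG and 36.1, 36.6 and 32.3 CPM in VPS72 libraries, within 1 overlapping range. Its log2 fold change of -0.02 ± 0.09 has a 95% interval from -0.20 to 0.17, and the sign turned when single libraries were left out. C1R, which activates C1s and lies next to it on chromosome 12, was at 6.35 to 8.83 CPM. MBL2, mannose-binding lectin, went from 3.86 ± 0.45 to 4.95 ± 0.98 CPM with overlap and an adjusted p of 0.534 by edgeR. MASP2, whose product cleaves C4 and C2 in the lectin pathway, had 0 to 21 counts, and its gene overlaps the abundant TARDBP in the RefSeq table.

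Of the convertase components, all 5 were tested and 0 passed by edgeR, 1 with an unadjusted p under 0.05. C3, the component on which the activating pathways converge, had 210, 231 and 237 CPM in FLAG and 258, 253 and 251 CPM in VPS72 libraries. The groups did not overlap, and FLAG replicate 1 was the lowest of the 6. A difference of 12.5% in the mean did not pass over all genes (log2 fold change 0.17 ± 0.04 SE, BH-adjusted p = 0.108 by edgeR), although it did with DESeq2, without the filter on low counts and after GC and length correction. C2, the protease of the classical convertase, had 34.9, 37.2 and 34.2 CPM against 38.9, 38.8 and 37.0 CPM, with 2 of 3 VPS72 libraries above the FLAG range. This gave a log2 fold change of 0.11 ± 0.07. CFB, the corresponding protease of the alternative pathway, 1 gene away from C2, was low, at 2.54 ± 0.55 CPM in FLAG and 1.79 ± 0.36 CPM in VPS72 libraries, with an interval of the log2 fold change from -1.09 to 0.10. C4A and C4B, near-identical genes whose reads an estimating counter must divide, held 11 to 32 and 4 to 25 counts per library. With both summed before the fit, the log2 fold change was -0.59 ± 0.38 (SE, BH-adjusted p = 0.602 by edgeR).

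The terminal components were dominated by C5, which starts the membrane attack complex when it is cleaved. C5 had 700, 705 and 632 CPM in FLAG libraries and 716, 704 and 737 CPM in VPS72 libraries. FLAG replicate 3 lay below the other 5, and the groups overlapped. That is a log2 fold change of 0.08 ± 0.04 (SE, BH-adjusted p = 0.438 by edgeR), with a 95% interval from -0.00076 to 0.16. Its partners in the pore were far lower. C8A and C8B, 2 chains of C8 that lie side by side on chromosome 1, stood at 2.30 ± 0.51 and 1.70 ± 0.35 CPM in FLAG libraries, with log2 fold changes of -0.12 ± 0.27 and -0.03 ± 0.30. C8G, the third chain, had 1 to 11 counts. C6, which binds C5b, had 3, 3 and 2 counts in FLAG and 11, 6 and 11 counts in VPS72 libraries, too few to enter the test. C7 and C9, also pore components but outside the 40 genes, were also low. C7 had 1, 5 and 5 counts in FLAG and 0 in each VPS72 library, and C9 had a mean of 0.413 CPM over the 6 libraries.

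The soluble regulators held the 1 call. SERPING1, C1 inhibitor, which inactivates C1r, C1s and MASPs and also the contact factors XIIa and kallikrein, had 223, 235 and 227 CPM in FLAG replicates 1 to 3 and 266, 264 and 263 CPM in VPS72 replicates 1 to 3. The VPS72 libraries lay close together, and each was above every FLAG library. It rose by 15.7% (log2 fold change 0.21 ± 0.04 SE, BH-adjusted p = 0.0141 by edgeR). Over 16 alternatives the adjusted p ran from 8.54e-06 to 0.129, and it passed in 12 of them. Of the 6 leave-outs, the call was lost without FLAG replicate 1 (edgeR adjusted p = 0.129), without FLAG replicate 3 (0.0619) and without VPS72 replicate 1 (0.059).

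The other 5 soluble regulators were above 0 and did not pass. VTN, vitronectin, which blocks insertion of the pore, had 207, 227 and 217 CPM against 238, 250 and 234 CPM, without overlap (log2 fold change 0.15 ± 0.04 SE, BH-adjusted p = 0.141 by edgeR). CLU, clusterin, another fluid-phase inhibitor of the pore, had 180, 188 and 190 CPM in FLAG and 203, 208 and 187 CPM in VPS72 libraries. VPS72 replicate 3 fell inside the FLAG range, and the log2 fold change was 0.10 ± 0.05. CFI, the protease that degrades C3b and C4b, stood at 18.1, 20.5 and 19.8 CPM against 20.03, 21.6 and 22.1 CPM (0.12 ± 0.09). C4BPA and C4BPB encode the chains of C4b-binding protein, a cofactor for factor I. The alpha chain gene had 2.68 ± 0.79 CPM and the beta chain gene 8.35 ± 0.14 CPM in FLAG libraries, with log2 fold changes of 0.28 ± 0.27 and 0.16 ± 0.12.

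**Figure D3:**
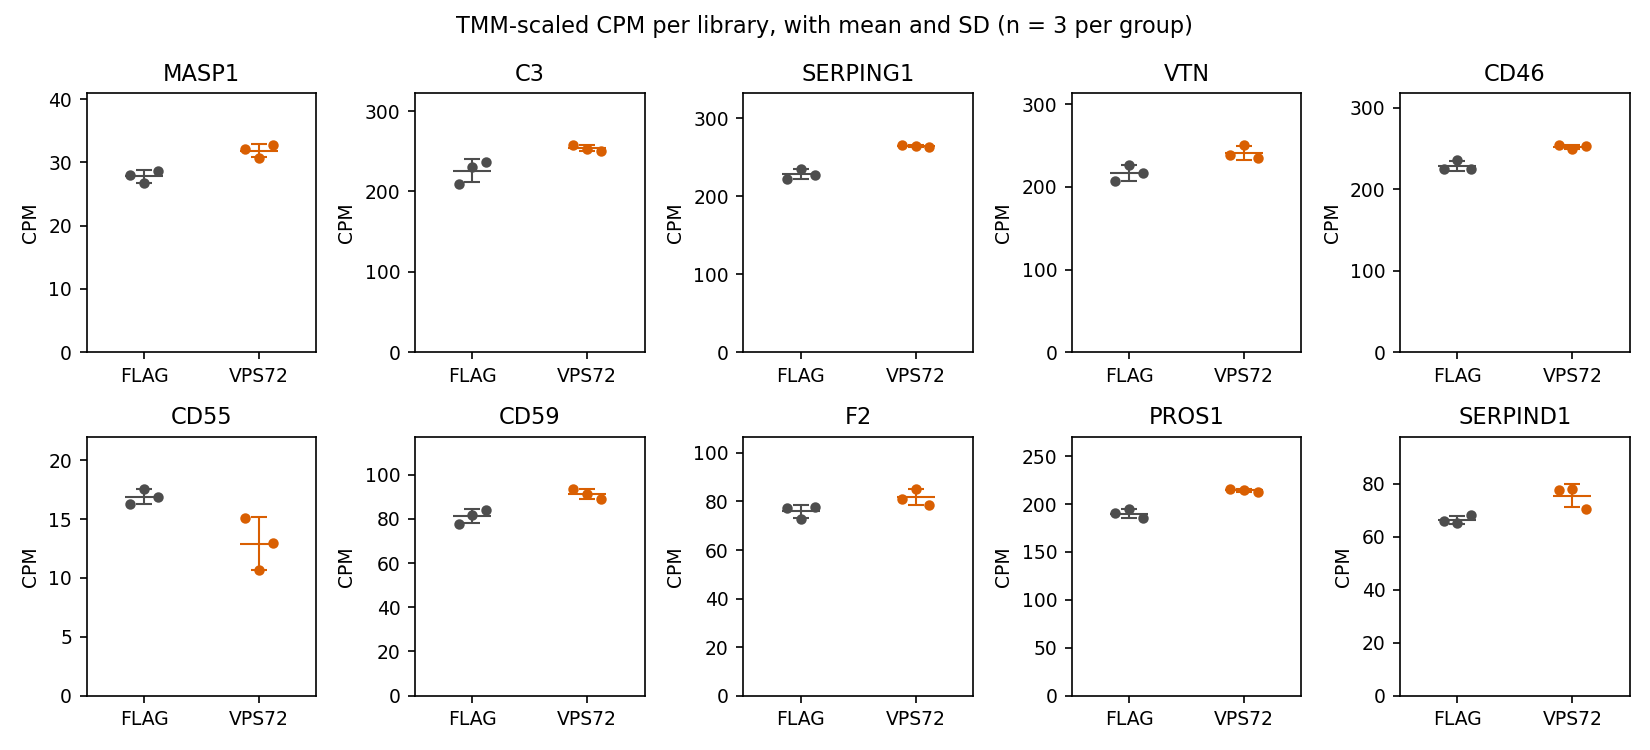
TMM-scaled CPM per library for the 10 tested members whose groups did not overlap, with the mean as a horizontal line and the SD as whiskers (n = 3 per group) on axes that start at 0. In 9 panels the VPS72 points lie above the FLAG points by a small step, and in the CD55 panel they lie below.

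The 3 membrane regulators, which guard the cell's own surface, did not overlap between the groups, and CD55 went the other way from CD46 and CD59. Of all tested genes, 17.2% did not overlap in either direction. At 50 CPM or more, the level of CD46 and CD59, 17.1% were higher without overlap. CD46, membrane cofactor protein, had 225, 236 and 225 CPM in FLAG and 254, 249 and 253 CPM in VPS72 libraries (log2 fold change 0.14 ± 0.04 SE, BH-adjusted p = 0.12 by edgeR). CD59, which stops C9 from polymerising, had 77.8, 82.0 and 84.2 CPM against 93.7, 91.3 and 89.2 CPM (0.17 ± 0.05; edgeR adjusted p = 0.133). CD55, decay-accelerating factor, which takes C3 convertases apart, had 16.3, 17.6 and 16.8 CPM in FLAG and 15.1, 10.6 and 13.01 CPM in VPS72 libraries. Every VPS72 library was below every FLAG library, with a spread among the VPS72 libraries (SD 2.24 CPM) above that among FLAG libraries (0.646 CPM). Its log2 fold change was -0.39 ± 0.12 (SE, BH-adjusted p = 0.193 by edgeR), from -0.51 without VPS72 replicate 1 to -0.26 without VPS72 replicate 2, and no alternative that gave an adjusted p passed it (DESeq2 gave none for this gene). None of the 3 membrane regulators passed over all genes.

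CD55 and CD46 belong to 1 cluster on chromosome 1 with C4BPB and C4BPA. In the RefSeq gene order C4BPA is next to CD55 and 3 coding genes separate CD55 from CD46. The log2 fold changes along it were 0.16 for C4BPB, 0.28 for C4BPA, -0.39 for CD55 and 0.14 for CD46. The promoter windows of CD55 and CD46 are shown because these neighbours had opposite signs. They are RefSeq sequences of build GRCh38.p14, from 250 bases before to 50 after the start, both on the plus strand, at chr1:207321428-207321727 for CD55 and chr1:207751788-207752087 for CD46. Capitals mark the GC box GGGCGG on either strand.

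CD55: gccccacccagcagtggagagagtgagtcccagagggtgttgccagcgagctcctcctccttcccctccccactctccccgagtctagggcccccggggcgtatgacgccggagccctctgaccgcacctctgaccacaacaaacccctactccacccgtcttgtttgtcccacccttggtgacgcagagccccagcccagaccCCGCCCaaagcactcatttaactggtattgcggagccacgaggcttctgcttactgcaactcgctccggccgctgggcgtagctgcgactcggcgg
CD46: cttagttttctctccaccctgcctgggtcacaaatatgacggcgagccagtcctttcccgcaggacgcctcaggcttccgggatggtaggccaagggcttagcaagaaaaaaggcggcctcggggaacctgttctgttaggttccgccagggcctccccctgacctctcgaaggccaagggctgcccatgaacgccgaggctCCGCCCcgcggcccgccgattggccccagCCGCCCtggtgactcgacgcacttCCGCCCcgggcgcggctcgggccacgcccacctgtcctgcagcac

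The CD55 window holds 1 GC box and the CD46 window 3. Windows of 300 bases were found for 32 of the 40 members, SERPING1 and C3 not among them, and the first listed window was used where a gene had several. A GC box was in 6 of the 32, those of C2, CD46, CD55, CD59, F10 and PROS1, against 45.0% of all 35116 windows in the table. The cAMP response element TGACGTCA, the sequence bound by ATF and CREB factors, was in 0 of the 32 and in 1.85% of all windows. The AP-1 sequence TGANTCA was in 0 of the 32 and in 7.71% of all. These are matches of letters on both strands and say nothing about binding in these cells.

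Coagulation members gave 0 calls among 15 tested by edgeR, and 1 (PROS1) with DESeq2. An unadjusted p under 0.05 by edgeR was reached by 6 of the 15, or 5 of 14 without SERPINC1, against 11.5% of all tested genes. Of the 5 coagulation members at 50 CPM or more 4 reached it, against 832 of 4328 genes at that level. Among the vitamin K-dependent procoagulant zymogens, F2, prothrombin, had 77.1, 73.0 and 77.6 CPM in FLAG and 81.1, 85.2 and 78.7 CPM in VPS72 libraries. The groups were adjacent without overlap, and the log2 fold change was 0.11 ± 0.05 (SE, BH-adjusted p = 0.423 by edgeR). F10, factor X of the prothrombinase complex, had 10.8, 10.5 and 14.7 CPM against 13.3, 16.9 and 14.0 CPM. FLAG replicate 3 lay inside the VPS72 range. Its log2 fold change of 0.30 ± 0.14 was 0.47 without FLAG replicate 3 and 0.19 without VPS72 replicate 2. F7, which starts clotting with tissue factor, had 13.7, 11.8 and 11.96 CPM against 11.4, 13.3 and 12.2 CPM. The log2 fold change was -0.02 ± 0.11 with an interval from -0.27 to 0.22, and its sign turned in 4 alternatives.

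F5, the cofactor of factor Xa, had 86.9, 89.4 and 92.9 CPM in FLAG and 97.7, 88.3 and 91.7 CPM in VPS72 libraries, with overlap (0.05 ± 0.05). F13B, the carrier subunit of the fibrin-crosslinking factor XIII, had 3.40 ± 0.93 and 3.502 ± 0.22 CPM. None of the 4 contact-phase genes passed by edgeR, and 0 had an unadjusted p under 0.05. KNG1, kininogen, had 16.4, 18.4 and 15.3 CPM against 18.9, 17.2 and 19.3 CPM, with 2 VPS72 libraries above the FLAG range (0.14 ± 0.10). F11, factor XI, stood at 8.02 ± 0.78 and 8.77 ± 0.49 CPM (0.13 ± 0.13). KLKB1, plasma prekallikrein, next to F11 on chromosome 4, stood at 1.38 ± 0.50 and 1.498 ± 0.24 CPM (0.12 ± 0.35). The factor XII gene F12, which starts the contact pathway, had a log2 fold change of -0.25 ± 0.28 at 2.22 ± 0.28 CPM in FLAG libraries.

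Among the anticoagulant genes, PROS1 came closest to a call. PROS1 encodes protein S, the cofactor of activated protein C, which also circulates bound to C4b-binding protein and so joins both systems. It had 190, 195 and 185 CPM in FLAG and 216, 215 and 213 CPM in VPS72 libraries. The groups were separated by more than the range within either. Its log2 fold change was 0.17 ± 0.04 (SE, BH-adjusted p = 0.0538 by edgeR), and it passed in 5 of 16 alternatives, with adjusted p from 0.00155 to 0.23, and in 0 of the 6 leave-outs. PROC, protein C, had 14.2, 13.9 and 13.03 CPM against 13.7, 18.3 and 14.2 CPM, with VPS72 replicate 2 the highest (0.17 ± 0.12). Without that library the log2 fold change was 0.03. PROZ, a cofactor for inhibition of factor Xa, was at 1.32 ± 0.53 and 1.54 ± 0.04 CPM, and its gene overlaps PCID2, which held 7646 counts over the 6 libraries.

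SERPIND1, heparin cofactor II, had 66.1, 65.1 and 68.0 CPM in FLAG and 77.7, 78.1 and 70.4 CPM in VPS72 libraries, without overlap (log2 fold change 0.19 ± 0.05 SE, BH-adjusted p = 0.144 by edgeR). The gene overlaps PI4KA, which held 35617 counts, and the sources used here do not state strand use in counting, so reads of the 2 genes may not be fully separated. The same holds for KLKB1 and CYP4V2. TFPI, tissue factor pathway inhibitor, had 148, 156 and 146 CPM against 154, 158 and 168 CPM, overlapping (0.10 ± 0.05). SERPINC1, antithrombin, had the largest log2 fold change among tested members, at a low depth of 9, 9 and 19 counts in FLAG and 23, 42 and 28 counts in VPS72 libraries. FLAG replicate 3 overlapped VPS72 replicate 1 in CPM. The SERPINC1 value was 1.19 ± 0.48 (SE, BH-adjusted p = 0.339 by edgeR). The gene reached the level of the filter in 3 VPS72 libraries but in only 1 FLAG library.

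The promoter windows of PROS1, F10 and PROZ are shown because PROS1 had the smallest p among coagulation members, and because F10 and PROZ, which lie near F7 on chromosome 13, share a match. The windows are RefSeq sequences of build GRCh38.p14, at chr3:93973847-93974146 on the minus strand for PROS1, and on the plus strand at chr13:113122549-113122848 for F10 and chr13:113158398-113158697 for PROZ. Capitals mark the GC box GGGCGG and the sequence CAAAGTCCA, bound by the liver receptor HNF4, on either strand.

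PROS1: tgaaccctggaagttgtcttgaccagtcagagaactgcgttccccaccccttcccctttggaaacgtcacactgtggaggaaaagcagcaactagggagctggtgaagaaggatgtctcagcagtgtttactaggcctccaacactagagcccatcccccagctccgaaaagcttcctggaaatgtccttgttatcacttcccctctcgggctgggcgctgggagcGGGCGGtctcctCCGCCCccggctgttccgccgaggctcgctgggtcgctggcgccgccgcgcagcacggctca
F10: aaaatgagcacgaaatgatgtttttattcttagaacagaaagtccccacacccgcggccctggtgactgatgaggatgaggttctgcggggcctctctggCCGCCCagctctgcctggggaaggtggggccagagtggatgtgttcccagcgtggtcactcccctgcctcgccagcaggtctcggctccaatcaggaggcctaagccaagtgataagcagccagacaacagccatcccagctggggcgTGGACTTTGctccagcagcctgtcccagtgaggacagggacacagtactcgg
PROZ: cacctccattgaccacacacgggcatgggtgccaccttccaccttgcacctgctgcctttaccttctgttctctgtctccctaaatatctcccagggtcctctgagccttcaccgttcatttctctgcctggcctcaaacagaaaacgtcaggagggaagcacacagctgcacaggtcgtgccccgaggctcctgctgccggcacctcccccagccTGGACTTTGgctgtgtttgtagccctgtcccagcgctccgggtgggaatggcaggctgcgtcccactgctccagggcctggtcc

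PROS1 has 2 GC boxes within the last 24 bases before its start. F10 and PROZ each hold CAAAGTCCA once, on the opposite strand, beginning 2 and 34 bases before the start. That sequence was in 2 of the 32 member windows and in 0.384% of all windows. HNF4A was at 322, 317 and 316 CPM in FLAG and 333, 344 and 323 CPM in VPS72 libraries (log2 fold change 0.07 ± 0.04 SE, BH-adjusted p = 0.504 by edgeR). The log2 fold changes of the chromosome 13 neighbours were -0.02 for F7, 0.30 for F10 and 0.22 for PROZ.

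**Figure D4:**
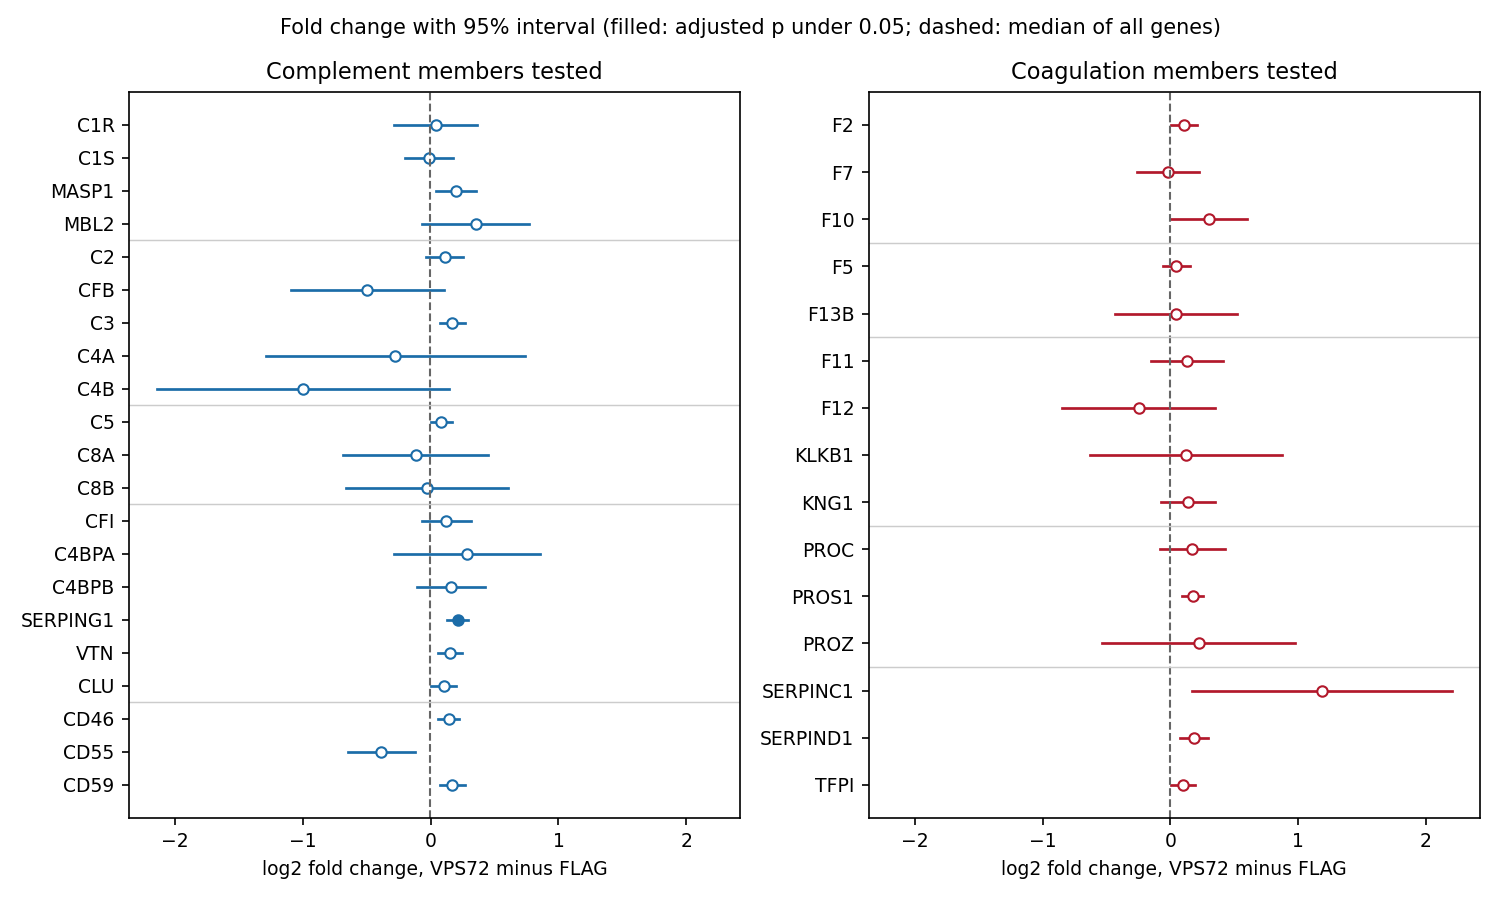
Log2 fold change (VPS72 minus FLAG) of each tested member with its 95% interval, complement left and coagulation right, grey lines separating roles and the dashed line at the median of all tested genes. SERPING1 is the 1 filled point (adjusted p under 0.05), and intervals widen for members of low count such as C4B and SERPINC1.

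Complement and coagulation members had similar medians over all levels. Median log2 fold changes were 0.11 over 21 tested complement members, 14 of them above 0, and 0.13 over 15 tested coagulation members, 13 of them above 0 (12 of 14 without SERPINC1). At 50 CPM or more the medians were 0.15 and 0.11. Under 50 CPM they were 0.01 over 14 complement members, 7 of them above 0, and 0.13 over 10 coagulation members, 8 of them above 0. All tested genes under 50 CPM had a median of -0.027, with 4305 of 9925 above 0. The median standard error of a member there was 0.18 in each class. C4B and SERPINC1, which each reached the filter level in all libraries of 1 group only, are among these members. The 5 convertase components had a median of -0.28, which is the value of C4A itself (SE 0.48). C4B, counted among the 5, reached the filter level in 3 FLAG and 2 VPS72 libraries. None of these differences between the classes was tested. The complement members summed to 1981, 2074 and 1981 CPM in FLAG and 2202, 2190 and 2186 CPM in VPS72 libraries, higher by 8.99% in the mean. C5 made up 31.9% to 35.4% of that sum, and without it the difference was 10.6%. The coagulation members summed to 639, 649 and 643 CPM against 702, 708 and 701 CPM, higher by 9.31%, or 7.88% without PROS1. Neither sum overlapped between the groups. Complement over coagulation was 3.10, 3.19 and 3.08 in FLAG and 3.14, 3.09 and 3.12 in VPS72 libraries. These ratios overlapped, at 3.13 ± 0.06 and 3.12 ± 0.02 (SD, n = 3 each), so the summed levels showed no shift of one class relative to the other, though abundant genes dominate those sums. The hepatocyte markers, a list that shares no gene with the members, moved the same way, from 19500 to 20400 CPM summed in FLAG to between 22100 and 22900 CPM in VPS72 libraries, with 7 of 10 rising and each of the 10 higher without overlap. Over all tested genes 0.421% rose and 8.76% were higher without overlap. At 50 CPM or more these shares were 1.29% and 17.1%, and the markers had a median of 1049 CPM. The fibroblast list, 3 of 5 expressed and led by LUM, went from 168 to 181 CPM in FLAG to between 202 and 209 CPM in VPS72 libraries. LUM alone went from a mean of 164 to 196 CPM. COL1A1 was at 7.06 and 6.21 CPM and PDGFRB at 2.29 and 2.89 CPM, each with overlap. The part of either list in the result was not tested. The endothelial and macrophage lists summed to at most 5.6 and 0.78 CPM in any library.

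**Figure D5:**
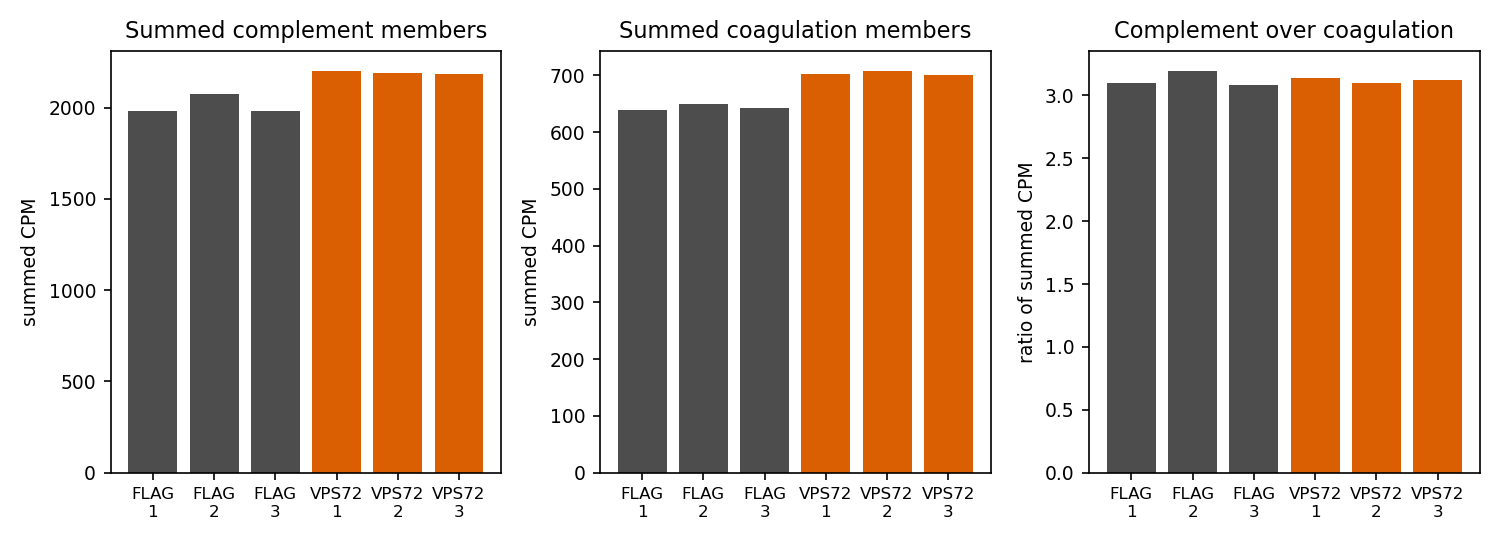
Summed CPM of the 24 complement and the 16 coagulation members per library, and their ratio, as bars from 0 with FLAG in grey and VPS72 in orange. Both sums are higher in the 3 VPS72 libraries, while the ratio stays between 3.08 and 3.19 in all 6.

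Other genes of the pathways, from lists that hold no member, gave few calls. Of 29 other complement genes 9 were tested and 0 passed by edgeR. An unadjusted p under 0.05 was reached by 2, against 11.5% of all tested genes. The receptors CR1, CR2, C3AR1 and C5AR1 and the ficolins had 0 to 11 counts per library. Of 19 other coagulation genes 11 were tested, 3 had an unadjusted p under 0.05 by edgeR and 1 rose. That was SERPINA5, protein C inhibitor, with 90.9, 89.7 and 92.7 CPM in FLAG and 106, 102 and 108 CPM in VPS72 libraries (0.21 ± 0.04 SE, BH-adjusted p = 0.0441 by edgeR). SERPINA10, the protein Z-dependent protease inhibitor, had 4.83, 3.65 and 4.37 CPM against 2.54, 3.56 and 1.605 CPM, lower without overlap and not past the test (-0.73 ± 0.26; edgeR adjusted p = 0.26). F3, tissue factor, had a log2 fold change of 0.06 ± 0.06.

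All 7 genes for the vitamin K cycle, gamma-carboxylation and secretion of clotting factors were tested, and 0 passed by edgeR. Of them 2 had an unadjusted p under 0.05 by edgeR, against 11.5% of all tested genes. At 50 CPM or more, 832 of 4328 tested genes had one. GGCX, the carboxylase, had 77.9, 83.8 and 82.9 CPM against 92.0, 83.9 and 90.6 CPM (0.12 ± 0.05). NQO1, a quinone reductase, had 192, 204 and 203 CPM against 227, 218 and 218 CPM, without overlap (0.14 ± 0.04, BH-adjusted p = 0.132 by edgeR). LMAN1, the receptor that carries factors V and VIII out of the endoplasmic reticulum, had a log2 fold change of 0.05 ± 0.04. FURIN, a propeptide-cleaving protease, had one of 0.01 ± 0.04. Of 11 tested acute phase and IL-6 signalling genes, 1 rose, ORM1, which encodes alpha-1-acid glycoprotein, from 185 ± 1.37 to 215 ± 10.4 CPM (BH-adjusted p = 0.0298 by edgeR). An unadjusted p under 0.05 by edgeR was reached by 5 of the 11, in both directions, against the same 11.5% of all tested genes. CRP and SAA1 were at 0 in every library. STAT3 had a log2 fold change of -0.06 ± 0.04 and SOCS3, a target that restrains IL-6 signalling, of -0.34 ± 0.14, and neither passed. Of 12 liver transcription factors 0 passed by edgeR, with 3 at an unadjusted p under 0.05, again against 11.5%. NR1H4, the bile acid receptor FXR, had 64.3, 62.6 and 60.5 CPM against 72.2, 74.8 and 72.1 CPM (0.22 ± 0.05 SE, BH-adjusted p = 0.0512 by edgeR).

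The precision of the log2 fold change differed with level. The median standard error was 0.04 for members averaging 50 CPM or more, of which 11 of 12 did not pass, and 0.18 for the 24 tested members below it.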

How the data were processed

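Polyadenylation or depletion, strand use, tool versions and annotation: not given in the sources used here. RNA was extracted with RNAzol and libraries used KAPA RNA HyperPrep, per the labels' protocols. The authors deposited estimated counts per gene symbol, as whole numbers and not normalized, with STAR, RSEM, limma, hg19 and hg38 named without role in the submitters' processing notes, so no coordinates of the counted gene models are printed. Promoter coordinates are those of the RefSeq table (GRCh38.p14).

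Genes were kept by filterByExpr (minimum count 10, minimum total 15), which left 14253 genes with 99.925% of counts. Counts were TMM-scaled and tested by edgeR 4.0.16 quasi-likelihood (R 4.3.3, 3 against 3 libraries, Benjamini-Hochberg over all tested genes, threshold 0.05). CPM uses the TMM-scaled size, and SE is the fold change over the root of F. The fit was also run on counts simulated with the same dispersion for every gene, and nothing reported here rests on that run. Libraries of a group differed by more than sampling noise (chi-square per degree of freedom 4.7 to 7.69). Intervals and the 3-count limit cover counting error only, except the 95% intervals of fold changes, which include the spread between libraries. An exact permutation test of 3 against 3 cannot go below p = 0.1, so sums are given without a test. The members and lists were chosen with earlier results of these data known. Values per library were given for members past the threshold or averaging 10 CPM or more, and ranges or means for the others. Of lists that hold no member, genes past the threshold and up to 4 of the most abundant could be named. C7, C9, GGCX, SERPINA10, SOCS3, NR1H4, CRP, SAA1 and the receptors were named after their values were seen. Lengths and GC content came from GENCODE release 29 (98.01% of tested genes). Alternatives were other scalings and filters, DESeq2 1.42.0, limma-voom 3.58.1, a replicate block, trends removed, a threshold of 0.01, regrouped members and each library left out.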

Additional observations from a re-analysis of the deposited data

How the results depend on the processing

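Genes past the threshold over all genes numbered 88, and 264 without the filter, 249 with DESeq2, 32 with the replicate number as a block, 54 after abundance correction, 412 after GC and length correction, 32 at a threshold of 0.01, and 25 (without FLAG replicate 1) to 100 (without FLAG replicate 2) in leave-outs. Complement members past it numbered 1, and 3 without the filter, 4 with DESeq2, 0 with the replicate block, 5 after GC and length correction, 0 at a threshold of 0.01, 0 with SERPING1 and VTN counted as coagulation, and 0 to 1 in leave-outs. Coagulation members past it numbered 0, and 1 with DESeq2 size factors, without the filter, with DESeq2, with limma-voom and with SERPING1 and VTN counted there, 2 after GC and length correction, and 0 in each leave-out. The cause of these changes was not tested. With the replicate block, SERPING1 had an adjusted p of 0.0763 (edgeR). Same-numbered libraries correlated at -0.245, -0.118 and 0.156 in their deviations from the group means. The highest values with another number were 0.204, 0.389 and 0.0824. With 3 libraries per group this cannot show whether same-numbered libraries share a batch, and the labels do not say that they pair. The complement median log2 fold change was 0.094 to 0.15 in leave-outs, the highest without FLAG replicate 2, and the coagulation median 0.11 to 0.16. With library size alone the summed difference was 6.63% for complement and 6.95% for coagulation, and leave-outs gave 8.20% to 10.8% and 8.98% to 9.89%. C1S became 0.0022 after GC and length correction and ran from -0.116 to 0.0373 in leave-outs. F7 became 0.0072 after abundance correction and 0.0015 after GC and length correction, and ran from -0.0784 to 0.0543 in leave-outs. The number of expressed members stayed at 32 under the 3 other scalings. Among the other values of single members, 304 kept their direction and side of the threshold, 15 newly passed, 4 lost the call and 7 had no adjusted p from DESeq2.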
